A study of Mus musculus with 9 samples.

Results

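Respiratory chain assembly factors are proteins that help to build the complexes of the mitochondrial respiratory chain and the ATP synthase without being part of the finished enzymes. They were chosen by gene symbol, as the genes of the chaperones, cofactor carriers, insertases and translation activators named for complexes I to V, and 27 of the 44 genes listed had a row in the deposited matrix, out of 17753 genes in all. Their transcripts were compared in 3 tissues, brown fat, soleus muscle and white fat, with 3 RNA-seq libraries each and 9 in all. All tissue was taken from C57BL/6J males at an age of 3 months, and the labels name neither a mutation nor a treatment. The labels state 3 mice and do not say which libraries share an animal, nor whether tissue of several animals was pooled, so p-values measure the spread between these libraries. The labels do not name the depot of the white fat.

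Each complex is put together from many subunits in ordered steps. Complex I factors hold membrane and peripheral modules together while they join, or modify single subunits. Complex II and III factors insert flavin, iron-sulfur clusters and the Rieske protein, an iron-sulfur subunit. Complex IV factors make haem A, carry copper and guide the mitochondrially encoded core subunits into the membrane, and complex V factors chaperone the subunits of the catalytic head and of the membrane ring. Brown fat burns fuel for heat, soleus is a postural muscle with many oxidative fibres, and white fat stores lipid. The first 2 are known as tissues rich in mitochondria.

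Values are FPKM, fragments of a transcript divided by its length and by the library's mapped fragments. Division by length puts genes on a common scale. How far reads shared between similar genes disturb comparisons of level between genes was not tested. The 17 genes not matched to a row were Ndufaf5, Ndufaf6, Ndufaf7, Ndufaf8, Timmdc1, Sdhaf4, Uqcc1, Uqcc2, Cox14, Cox16, Cox20, Sco2, Surf1, Coa3, Coa5, Coa6 and Pet100, which are not analysed here. All 27 measured genes had at least 1 FPKM in at least 3 libraries and entered the tests, 9 of them for complex I, 3 for complex II, 4 for complex III, 8 for complex IV and 3 for complex V. None was at 0 in any library.

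The libraries carried the markers of their labels. Ucp1, the uncoupling protein gene of brown fat, stood at 3386 to 4108 FPKM in brown fat, 0.617 to 4.14 FPKM in soleus and 1.45 to 35.7 FPKM in white fat. Myl2, a slow muscle myosin light chain gene, stood at 0.190 to 1.84 FPKM in brown fat, 8755 to 11002 FPKM in soleus and at most 0.0195 FPKM in white fat. Adipoq, an adipocyte hormone gene, averaged 1008 FPKM in brown fat and 2876 FPKM in white fat and stood at 77.1, 31.8 and 12.4 FPKM in soleus replicates 1, 2 and 3. The sum of 8 white adipocyte markers was 242, 102 and 46.5 FPKM in the same soleus libraries, with replicate 1 highest. This sum was 1060 to 1206 FPKM in brown fat, most of it Adipoq, and 7164 to 8936 FPKM in white fat. Hoxc9 of this list went the other way, with means of 5.65 FPKM in soleus and 1.98 FPKM in white fat. The summed level of the 5 measured of 8 fast muscle markers was 26.0, 197 and 105 FPKM in brown fat replicates 1, 2 and 3, against 25260 to 30605 FPKM in soleus and 2.73 to 4.76 FPKM in white fat. The sum of the 7 measured of 9 macrophage markers was 44.2 to 52.0 FPKM in brown fat, 33.8 to 46.6 FPKM in soleus and 472 to 581 FPKM in white fat. Mesothelium markers, 4 measured of 5, summed to 1.19 to 1.42 FPKM in brown fat with Wt1 at 0, 1.87, 0.245 and 0.315 FPKM in soleus and 58.1 to 88.5 FPKM in white fat. None of the muscle and macrophage markers was at 0 throughout a tissue. The part of these other cells in the results below was not tested, and in whole tissue fewer cells of a type and less RNA per cell cannot be told apart. White fat held both extremes of relative depth, which was estimated from low values: replicate 3 was 3.58 times as deep as replicate 2.

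**Figure D1:**
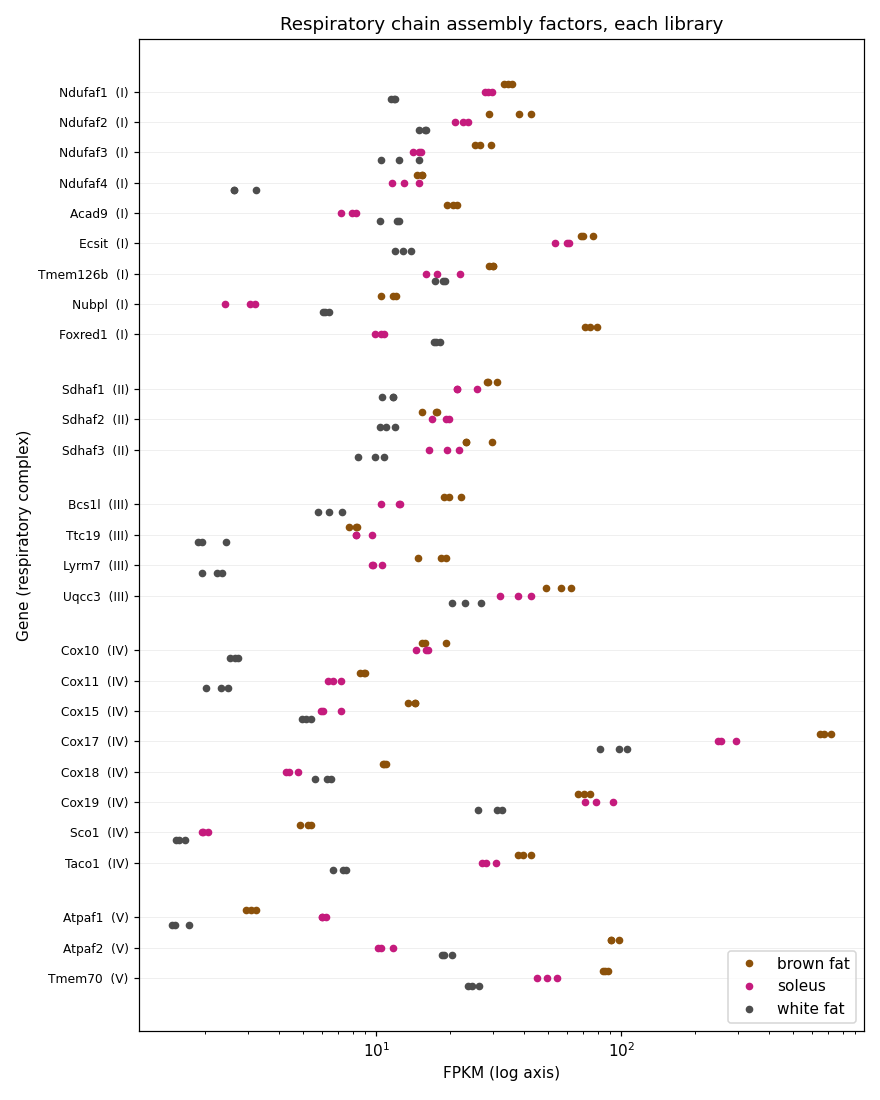
FPKM of the 27 assembly factor genes on a log axis, 1 point per library, with genes grouped by the complex they help to build. Brown fat lies above white fat for every gene, and Cox17 is the highest gene in all 3 tissues, with means of 679 FPKM in brown fat, 266 in soleus and 95.1 in white fat.

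Brown fat against white fat gave higher levels of every measured assembly factor. All 27 genes were called higher in brown fat at a limma adjusted p under 0.05, where 38% of all genes tested were called higher and 34.8% lower, and no member was called lower. The libraries of the 2 tissues did not overlap for any of the 27, where all brown fat libraries lay above all white fat libraries for 40.6% of the genes tested and below them for 36.9%. The sum of 8 brown adipocyte markers was 11801 to 13161 FPKM in brown fat, 4269 to 5641 FPKM in soleus and 70.0, 39.2 and 178 FPKM in white fat replicates 1, 2 and 3. In soleus it was carried by Cox8b, which averaged 4710.5 FPKM there and, like Ppargc1a of the same list, was not called between brown fat and soleus (limma adjusted p = 0.25 and 0.13). All 27 calls held with any single library left out. The ratio of mean FPKM ran from 1.52 for Sdhaf2, which serves flavin attachment to Sdha, to 8.03 for Lyrm7, a chaperone of the Rieske protein, with a median of 2.94. On the log2(FPKM + 1) scale the median difference was 1.31, beside 0.03 over all genes tested. The 5 largest differences were those of Cox17 (2.83, SE 0.11), Lyrm7 (2.53, SE 0.10), Ecsit (2.39, SE 0.09), Taco1 (2.33, SE 0.08) and Cox10 (2.29, SE 0.09), with limma adjusted p-values of 2.0e-09 to 5.3e-09. With TPM rescaling, which sets every library to the same total, the median of all genes shifted to -0.52 and that of the members to 0.95, and 25 of the 27 were called, without Sdhaf2 and Tmem126b. The distance of the members' median from that of all genes was 1.28 as deposited and 1.47 with TPM rescaling.

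Soleus against white fat divided the factors. Of the 27 genes, 20 were called higher and 5 lower in soleus (limma adjusted p under 0.05), where 29.7% of all genes tested were called higher and 54.5% lower. The median difference was 0.92 log2 units, beside -0.35 over all genes. The 5 largest increases were those of Cox10 (2.19, SE 0.09), Ecsit (2.09, SE 0.09), Ndufaf4 (1.89, SE 0.10), Taco1 (1.86, SE 0.08) and Lyrm7 (1.79, SE 0.10). The 5 genes lower in soleus were Nubpl (-0.90, SE 0.09), Atpaf2 (-0.79, SE 0.08), Foxred1 (-0.72, SE 0.07), Acad9 (-0.52, SE 0.08) and Cox18 (-0.38, SE 0.07), of which Cox18 turned to 0.02 and Acad9 to -0.09, uncalled (limma adjusted p = 0.76 and 0.33), with median of ratios scaling. The 2 genes that did not pass were Ndufaf3 (0.23, limma adjusted p = 0.084, over a range of 0.00019 to 0.34 in its alternatives) and Tmem126b (0.00, limma adjusted p = 0.99, range 7.9e-05 to 1.0). TPM rescaling moved the median of all genes to -0.93 and gave 16 members higher and 8 lower, and median of ratios scaling moved it to 0.04 and gave 22 higher and 3 lower. The members' median stood 1.27 above that of all genes as deposited, and 1.31 to 1.35 above it with these 2 scalings and the upper quartile.

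Brown fat against soleus set side by side the pair of tissues rich in mitochondria. In brown fat 21 factors were called higher and 1 lower (limma adjusted p under 0.05), where 52.9% of all genes tested were called higher and 25.6% lower. The median difference was 0.66 log2 units, beside 0.29 over all genes, so the members' median stood 0.37 above it. The largest differences were those of Atpaf2 (3.00, SE 0.08), Foxred1 (2.74, SE 0.07), Nubpl (1.68, SE 0.09), Cox17 (1.35, SE 0.11) and Acad9 (1.29, SE 0.08). Atpaf1 was the lower gene (-0.79, SE 0.07). Ndufaf4, Sdhaf2, Ttc19, Cox10 and Cox19 did not pass, and their libraries overlapped between the tissues. With upper quartile and median of ratios scaling Cox19 (-0.56 and -0.60), Sdhaf2 (-0.50 and -0.53), Ttc19 (-0.42 and -0.46) and Cox10 (-0.26 and -0.29) were called lower in brown fat than in soleus. These counts moved with the scaling: 14 were higher and 5 lower with upper quartile scaling and 13 higher and 5 lower with median of ratios scaling, where the median of all genes was 0.01 and -0.02. With median of ratios scaling the differences of Ndufaf1, Ndufaf4, Ecsit, Sdhaf1, Sdhaf3, Cox10 and Cox11 turned negative, so the direction of these small differences depends on the scaling. Those of Taco1, Uqcc3 and Ndufaf2 stayed positive but were not called.

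**Figure D2:**
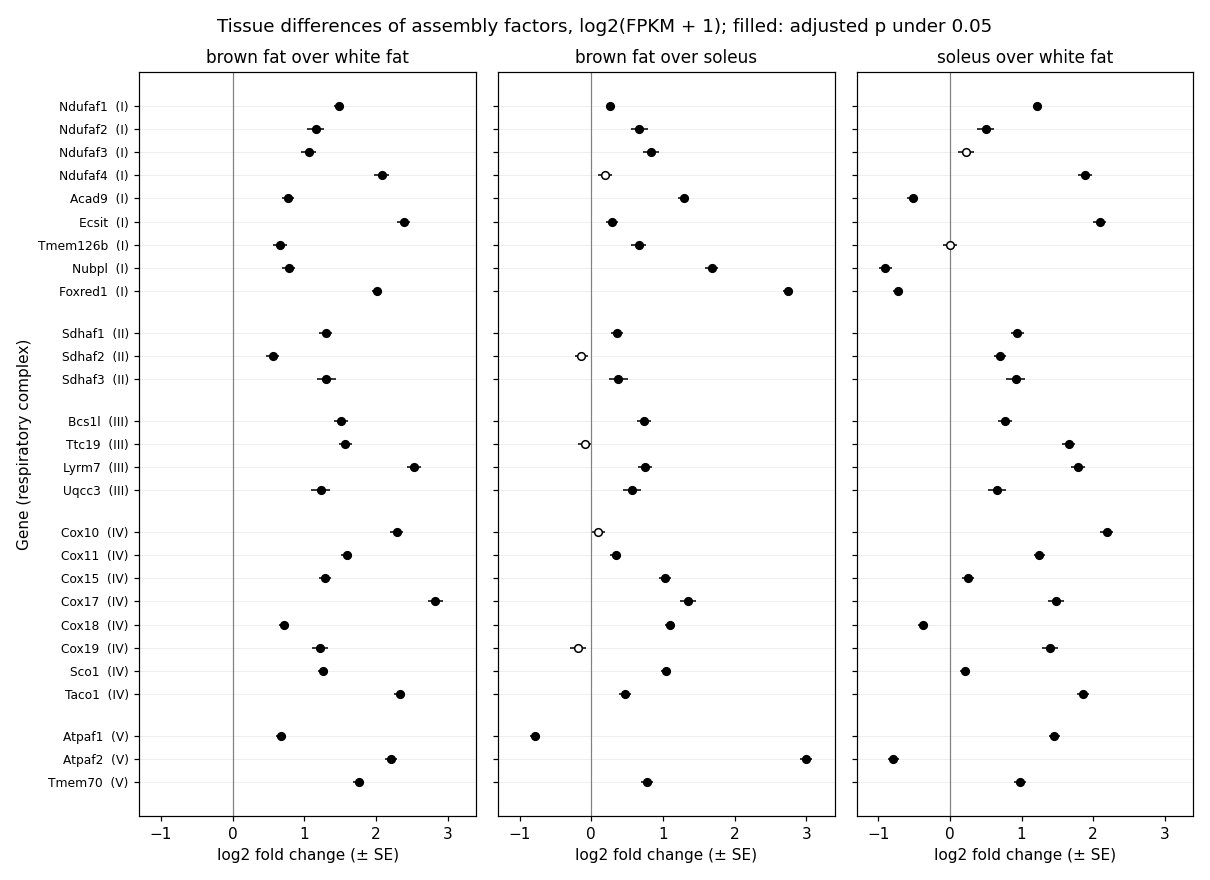
Differences in log2(FPKM + 1) between tissues for each factor, with the standard error from limma, in panels for brown fat over white fat, brown fat over soleus and soleus over white fat. Filled points passed an adjusted p under 0.05; all 27 are filled in the left panel, 22 in the middle and 25 in the right one.

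Read together, the calls placed 14 genes in the order brown fat, soleus, white fat from high to low, with every step called, a pattern of 51.9% of the members and 5.38% of all genes tested. These were Ndufaf1, Ndufaf2, Ecsit, Sdhaf1, Sdhaf3, Bcs1l, Lyrm7, Uqcc3, Cox11, Cox15, Cox17, Sco1, Taco1 and Tmem70. Another 5 (Acad9, Nubpl, Foxred1, Cox18 and Atpaf2) were highest in brown fat and lowest in soleus, 18.5% of the members and 13.4% of all genes. For 5 more (Ndufaf4, Sdhaf2, Ttc19, Cox10 and Cox19) brown fat and soleus were both called above white fat and the difference between them did not pass, the pattern of 5.54% of all genes. For Ndufaf3 and Tmem126b (7.41% of the members, 6.62% of all genes) soleus and white fat were both called below brown fat and the difference between them did not pass. Atpaf1 (3.70% of the members, 6.39% of all genes) was called highest in soleus. With upper quartile and with median of ratios scaling 5 members were called highest in soleus, namely Atpaf1, Cox10, Cox19, Sdhaf2 and Ttc19, and with TPM rescaling Atpaf1 and Sdhaf2. The order brown fat, soleus, white fat was called for 10 members with TPM rescaling and for 8 with each of the other 2 scalings. The shares of all genes with these patterns were not computed for these scalings, so these member counts have no background beside them. The order of brown fat and soleus, or of soleus and white fat, was open to the scaling for the genes named above, and also for Ndufaf2, Cox15 and Sco1, which stood at -0.03, -0.25 and -0.20 in soleus over white fat with TPM rescaling. Cox15 was then called lower in soleus (limma adjusted p = 0.032), the reverse of its call as deposited. Ndufaf2 and Sco1 were then not called (limma adjusted p = 0.81 and 0.088).

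Among the complex I factors, the intermediate assembly complex on the membrane arm did not move as a unit. Ecsit, its adaptor protein, stood at 68.3, 76.8 and 69.5 FPKM in brown fat, 53.6, 59.9 and 61.0 in soleus and 13.9, 11.9 and 12.8 in white fat. Acad9, an acyl-CoA dehydrogenase relative in the same complex, stood at 21.4, 19.5 and 20.5 FPKM in brown fat, 7.20, 8.24 and 7.99 in soleus and 12.4, 12.2 and 10.4 in white fat. The soleus libraries thus lay above every white fat library for Ecsit (ratio of means 4.52) and below every white fat library for Acad9 (ratio of means 0.670). Ndufaf1, the founding member of that complex, averaged 34.5 ± 1.16 FPKM in brown fat, 28.7 ± 0.896 in soleus and 11.8 ± 0.276 in white fat (SD, n = 3 each). Tmem126b, its membrane-bound member, stood at 28.7, 30.1 and 30.1 FPKM in brown fat, 16.0, 21.9 and 17.7 in soleus and 19.1, 18.7 and 17.3 in white fat.

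Nubpl and Foxred1 were lowest in soleus, like Acad9. Nubpl, which serves the delivery of iron-sulfur clusters, stood at 12.1, 11.7 and 10.5 FPKM in brown fat, 2.42, 3.04 and 3.21 in soleus and 6.17, 6.42 and 6.08 in white fat. Foxred1, an oxidoreductase-like late factor, stood at 79.6, 74.5 and 70.9 FPKM in brown fat, 9.90, 10.45 and 10.7 in soleus and 17.55, 18.3 and 17.3 in white fat. No library of one tissue reached those of another for either gene. The ratio of means of brown fat over soleus was 3.95 for Nubpl (limma adjusted p = 2.1e-08) and 7.24 for Foxred1 (limma adjusted p = 6.3e-11), and that of soleus over white fat was 0.464 (limma adjusted p = 3.0e-06) and 0.585 (limma adjusted p = 2.3e-06). All 4 calls held under the alternatives tried.

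The factors of the early quinone module behaved unlike each other. Ndufaf4 stood at 14.7, 15.4 and 15.4 FPKM in brown fat, 11.6, 14.9 and 13.0 in soleus and 3.22, 2.62 and 2.62 in white fat. Its partner Ndufaf3 averaged 27.0 ± 2.12 FPKM in brown fat, 14.8 ± 0.581 in soleus and 12.6 ± 2.29 in white fat (SD, n = 3 each). Without soleus replicate 2, the highest of that tissue for Ndufaf4, brown fat was called higher than soleus for this gene (0.28 log2 units, limma adjusted p = 0.022, range 0.022 to 0.31). Ndufaf4 was thus low in white fat alone, and Ndufaf3 was high in brown fat alone. Without white fat replicate 1, whose Ndufaf3 level of 15.0 FPKM exceeded the 10.4 and 12.4 of the others, Ndufaf3 was called higher in soleus than in white fat (0.35 log2 units, limma adjusted p = 0.0077, range 0.00019 to 0.34). Ndufaf2, a chaperone related to a complex I subunit, averaged 36.6 ± 7.06 FPKM in brown fat, 22.4 ± 1.38 in soleus and 15.6 ± 0.596 in white fat, and its brown fat values of 38.1, 42.7 and 28.8 FPKM spread most of all members in that tissue.

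The complex II factors were moderate in level and in difference. Sdhaf1, which serves the insertion of iron-sulfur clusters into Sdhb, stood at 28.6, 31.2 and 28.4 FPKM in brown fat, 21.3, 25.7 and 21.3 in soleus and 11.8, 10.5 and 11.7 in white fat. Sdhaf3, which also acts on Sdhb, averaged 25.4 ± 3.66 FPKM in brown fat, 19.2 ± 2.65 in soleus and 9.65 ± 1.17 in white fat (SD, n = 3 each). Its excess in brown fat over soleus (0.38 log2 units, limma adjusted p = 0.017) was no longer called without brown fat replicate 1 (0.27, limma adjusted p = 0.071) or soleus replicate 1 (0.28, limma adjusted p = 0.072). Sdhaf2 averaged 16.8 ± 1.30, 18.7 ± 1.51 and 11.1 ± 0.783 FPKM in that order. Brown fat and soleus libraries of Sdhaf2 overlapped, and the ratio of means of 1.52 over white fat was the smallest of all members in that comparison. With TPM rescaling this last difference fell to 0.01 log2 units (limma adjusted p = 0.87, range 5.3e-05 to 0.87).

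Of the complex III factors, those of the Rieske protein differed in size of effect. Lyrm7 stood at 19.3, 18.4 and 14.8 FPKM in brown fat, 9.59, 10.6 and 9.73 in soleus and 2.35, 2.24 and 1.95 in white fat, 3 groups that did not overlap. Bcs1l, the ATPase that moves the folded Rieske protein across the inner membrane, averaged 20.3 ± 1.59 FPKM in brown fat, 11.8 ± 1.13 in soleus and 6.48 ± 0.734 in white fat (SD, n = 3 each). Ttc19, which clears Rieske fragments, averaged 8.10 ± 0.320, 8.71 ± 0.743 and 2.08 ± 0.298 FPKM in that order. White fat was thus 8.03 times below brown fat for Lyrm7, 3.14 times for Bcs1l and 3.89 times for Ttc19. Uqcc3, a cytochrome b assembly factor and the highest of the complex III group, stood at 56.7, 62.4 and 49.2 FPKM in brown fat, 32.1, 42.6 and 37.8 in soleus and 26.9, 20.4 and 23.0 in white fat.

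Complex IV factors for copper held both the highest level of all members in each tissue, that of Cox17, and one of the lowest, that of Sco1. Cox17, the copper chaperone of the intermembrane space, stood at 649.6, 715 and 672 FPKM in brown fat, 256, 295 and 247 in soleus and 105, 81.7 and 98.2 in white fat. Cox19, another small copper handling protein, averaged 70.5 ± 4.09 FPKM in brown fat, 80.8 ± 10.99 in soleus and 29.8 ± 3.35 in white fat (SD, n = 3 each). Sco1, which delivers copper to the core subunit Cox2, averaged 5.19 ± 0.282, 1.99 ± 0.0546 and 1.58 ± 0.0679 FPKM in that order. Cox11, which delivers copper to Cox1, averaged 8.83 ± 0.210, 6.75 ± 0.416 and 2.27 ± 0.238 FPKM. Each of these copper genes thus had its lowest mean in white fat. For Sco1 soleus was only 1.26 times white fat, a difference that turned to -0.20 log2 units with TPM rescaling. Brown fat exceeded soleus 2.55 times for Cox17 and 2.61 times for Sco1 and overlapped it for Cox19.

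Both haem A enzymes were measured and parted in soleus. Cox10, the haem O synthase that acts first, stood at 15.4, 19.2 and 15.8 FPKM in brown fat, 14.6, 15.9 and 16.2 in soleus and 2.66, 2.53 and 2.72 in white fat. Cox15, the haem A synthase that acts next, averaged 14.1 ± 0.546 FPKM in brown fat, 6.39 ± 0.674 in soleus and 5.19 ± 0.2002 in white fat (SD, n = 3 each). Soleus was therefore near brown fat for Cox10, with a ratio of brown fat to soleus of 1.08, and near white fat for Cox15, with a ratio of soleus to white fat of 1.23. Taco1, the translation activator of Cox1, stood at 37.8, 42.7 and 39.6 FPKM in brown fat, 27.1, 28.1 and 30.7 in soleus and 7.29, 6.64 and 7.55 in white fat. Cox18, which inserts Cox2 into the membrane, stood at 10.9, 10.75 and 10.6 FPKM in brown fat, 4.27, 4.42 and 4.81 in soleus and 6.51, 6.28 and 5.64 in white fat. Taco1 had its gap between white fat and the other tissues, and Cox18 had it between brown fat and the other tissues.

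The complex V chaperones went in opposite directions in soleus. Atpaf2, the chaperone of the alpha subunit, stood at 90.4, 97.5 and 90.7 FPKM in brown fat, 10.2, 11.7 and 10.4 in soleus and 20.5, 18.9 and 18.6 in white fat. Atpaf1, the chaperone of the beta subunit, stood at 2.94, 3.24 and 3.07 FPKM in brown fat, 5.99, 5.99 and 6.23 in soleus and 1.51, 1.71 and 1.47 in white fat. Brown fat over soleus was 8.61 times for Atpaf2 (limma adjusted p = 6.3e-11) and 0.508 times for Atpaf1 (limma adjusted p = 9.6e-07). Within a library the level of Atpaf2 divided by that of Atpaf1, a ratio that no scaling of libraries can move, was 29.6 to 30.7 in brown fat, 1.67 to 1.96 in soleus and 11.1 to 13.5 in white fat. Tmem70, which serves the ring of c subunits, stood at 88.4, 85.8 and 84.4 FPKM in brown fat, 45.2, 54.7 and 49.8 in soleus and 26.3, 23.6 and 24.6 in white fat, the order called for 14 members.

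**Figure D3:**
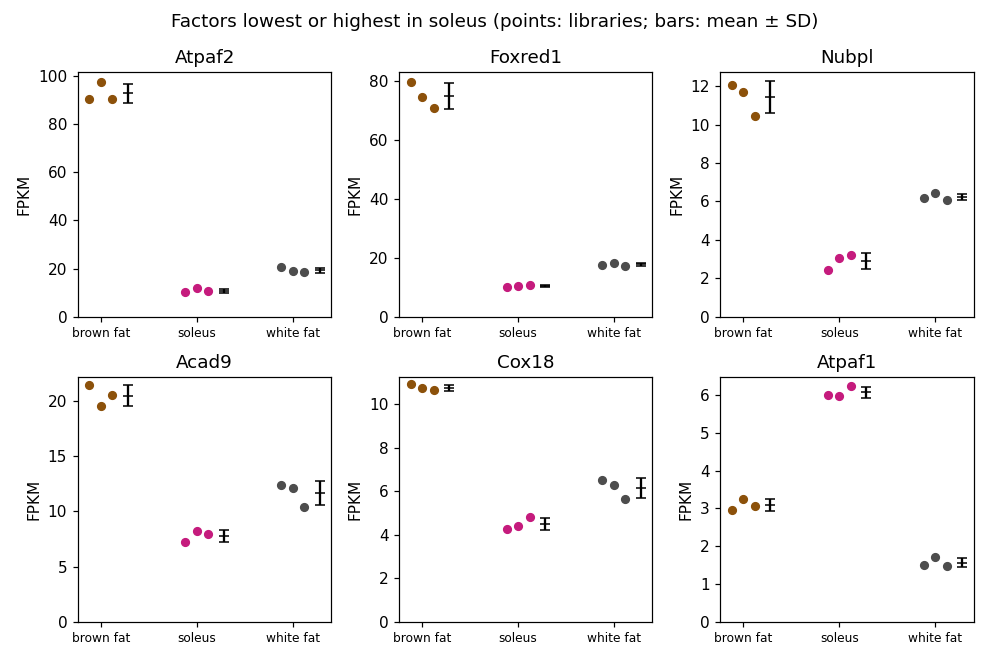
FPKM of the 5 factors called lowest in soleus (Atpaf2, Foxred1, Nubpl, Acad9 and Cox18) and of Atpaf1, called highest there, with 1 point per library and the mean ± SD of 3 libraries. Atpaf2 averages 92.9 FPKM in brown fat, 10.8 in soleus and 19.3 in white fat, and Atpaf1 averages 3.09, 6.07 and 1.57 FPKM.

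The subunit genes had larger median differences from white fat than their assembly factors, a gap that was not tested. These are differences in log2(FPKM + 1), where the added 1 shrinks those of low genes most. In white fat the median level was 10.8 FPKM for the factors and 111 FPKM for the subunits. With a pseudocount of 0.1 the median of all factors in brown over white fat was 1.55 in place of 1.31. The part of the pseudocount in the gap was not tested. In brown fat over white fat the median difference of the tested subunit genes was 2.33 log2 units for complex I (34 of 34 higher), 2.83 for complex II (4 of 4), 2.73 for complex III (9 of 9), 2.54 for complex IV (14 of 14) and 2.06 for complex V (12 of 14, with Atp5g1 and Atp5g3 lower). Over all genes tested 38% were called higher and 34.8% lower in this comparison. The factors of the same complexes had medians of 1.16, 1.30, 1.54, 1.44 and 1.76. In soleus over white fat the subunit medians were 2.10, 1.76, 2.33, 2.30 and 2.16 for complexes I to V, with 73 of 75 called higher and Cox6a1 and Cox8a lower, beside factor medians of 0.23, 0.92, 1.21, 1.32 and 0.98. Over all genes tested 29.7% were called higher and 54.5% lower in soleus. Cox6a1 and Cox8a are forms of complex IV subunits that have a muscle form beside them. In brown fat over soleus the subunit medians were 0.14, 0.89, 0.44, 0.31 and -0.25, and those of the factors 0.67, 0.36, 0.66, 0.75 and 0.78. Called higher and lower were 14 and 6 subunits of complex I, 4 and 0 of complex II and 6 and 0 of complex III. They were 6 and 1 for complex IV and 4 and 5 for complex V, where 52.9% of all genes were higher and 25.6% lower. The subunit with the highest mean in brown fat and soleus was Cox8b, at 6387 ± 305 FPKM in brown fat, 4710.5 ± 791 in soleus and 66.0 ± 41.5 in white fat (SD, n = 3 each). The widest differences were those of muscle and heart forms of complex IV subunits, with 7.35 log2 units for Cox7a1 in brown over white fat, 11.22 for Cox6a2 in soleus over white fat and -9.77 for Cox6a2 in brown fat over soleus. Many of the subunit genes are small and have near-identical copies, and the effect of this on single values was not tested. Atp5g1, a membrane ring gene, averaged 1.46 FPKM in brown fat, 282 in soleus and 9.13 in white fat.

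The ratio of factors to subunits within a library, which does not move with its scaling, was highest in white fat over all complexes. The median FPKM of the 27 factors was 3.78 ± 0.141% of that of the 75 subunits in brown fat, 2.89 ± 0.321% in soleus and 9.77 ± 0.565% in white fat (SD, n = 3 each). The 3 libraries of a tissue did not overlap those of another. For complex I it was 6.28 ± 0.150% in brown fat, 3.43 ± 0.380% in soleus and 14.6 ± 0.902% in white fat. For complex II soleus lay above brown fat, with 2.75 ± 0.385%, 5.45 ± 0.376% and 8.72 ± 0.450% in that order. Brown fat and soleus overlapped for complex III (1.89 ± 0.151% and 1.84 ± 0.0628%, against 3.41 ± 0.0871% in white fat) and for complex IV (0.758 ± 0.0599% and 0.719 ± 0.0690%, against 4.05 ± 0.456%). For complex IV the other summaries separated brown fat and soleus in opposite directions, with 2.87% in brown fat and 1.80% in soleus from sums of FPKM and 2.71% in brown fat and 3.48% in soleus from genes with a mean of at least 10 FPKM. The 14 complex IV subunit genes count muscle and heart forms beside the other forms. In white fat Cox6a2, Cox7a1 and Cox8b averaged 0.236, 22.0 and 66.0 FPKM, below the subunit median of 141 FPKM, which raises the ratio there. In soleus Cox6a1 and Cox8a averaged 105 and 136 FPKM, below the subunit median of 1573 FPKM. A ratio without these forms was not computed. These ratios are a description and were given no test.

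For complex V the order differed, with 15.3 ± 0.731% in brown fat, 1.03 ± 0.00829% in soleus and 8.73 ± 0.333% in white fat. With only 3 factors this median is Tmem70 in brown fat and Atpaf2 in the other tissues. Taken as sums of FPKM, the complex V ratio was 1.14% in brown fat, 0.358% in soleus and 1.21% in white fat, so soleus remained the lowest while brown fat no longer exceeded white fat.

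**Figure D4:**
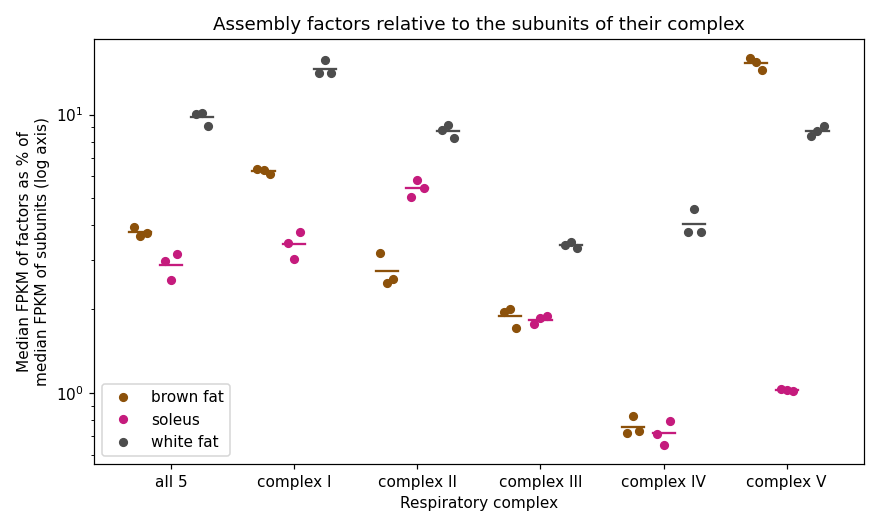
Median FPKM of the assembly factors as a percentage of the median FPKM of the subunits of the same complex, on a log axis, with 1 point per library and a line at the mean of 3 libraries. White fat is highest for all complexes together (9.77%) and for complexes I to IV, while for complex V brown fat is highest (15.3%) and soleus lowest (1.03%).

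Factors that act on a single known subunit could be set beside it, a choice made after the values were seen. The Rieske protein gene Uqcrfs1 averaged 785 ± 30.2 FPKM in brown fat, 499 ± 36.2 in soleus and 98.4 ± 5.40 in white fat (SD, n = 3 each). Lyrm7 kept close to it, at 2.22 ± 0.255% of its level in brown fat, 2.00 ± 0.0358% in soleus and 2.22 ± 0.206% in white fat, with libraries that overlapped across all 3 tissues. Bcs1l stood at 2.59 ± 0.245%, 2.37 ± 0.181% and 6.57 ± 0.385% of Uqcrfs1 in that order, and Ttc19 at 1.03 ± 0.0348%, 1.75 ± 0.0266% and 2.13 ± 0.408%. The ratio to the Rieske gene thus varied little for its direct chaperone and was raised in white fat for the translocase.

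Sdhaf1 stood at 2.63 ± 0.142% of Sdhb, the iron-sulfur subunit of complex II, in brown fat, 2.88 ± 0.0242% in soleus and 8.03 ± 0.263% in white fat. Sdhaf2 stood at 1.55 ± 0.0986% of Sdha, the flavin subunit, in brown fat, 6.17 ± 0.430% in soleus and 6.67 ± 0.512% in white fat. The low value in brown fat went with the Sdha level, which averaged 1085 FPKM there, 303 in soleus and 166 in white fat. Atpaf2 stood at 5.35 ± 0.0979% of the alpha subunit gene Atp5a1 in brown fat, 0.901 ± 0.0733% in soleus and 6.53 ± 0.352% in white fat. Atpaf1 stood at 0.0815 ± 0.00425% of the beta subunit gene Atp5b in brown fat, 0.303 ± 0.0144% in soleus and 0.218 ± 0.0283% in white fat. Relative to their clients, soleus was therefore low in the alpha chaperone and brown fat was low in the beta chaperone.

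Of 20 further assembly factors listed outside the set, 12 were measured and tested. In brown fat over white fat 11 were called higher, beside a share of 38% among the genes tested. Their median over the 12 was 1.17 log2 units, and Lyrm2 did not pass (0.16, limma adjusted p = 0.10). In soleus over white fat 9 were higher, beside a share of 29.7%, and the other 3 did not pass. In brown fat over soleus 7 were higher and 3 lower, beside shares of 52.9% and 25.6%. Those 3 were Dnajc30 (-0.31 log2 units), Fastkd2 (-0.26) and Ndufa4l2 (-0.49). Dmac2, a complex I factor, averaged 16.6 ± 1.42 FPKM in brown fat, 16.0 ± 0.252 in soleus and 2.82 ± 0.135 in white fat (SD, n = 3 each). Oxa1l, the insertase of the inner membrane, averaged 41.3 ± 2.64, 23.0 ± 1.41 and 13.7 ± 0.335 FPKM in that order.

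RefSeq promoter sequence was used for 23 of the 27 genes, all but Acad9, Cox17, Cox18 and Tmem70, on the mouse build GRCm38.p6, as 250 bases before and 50 after each annotated start. The letters CCGGAAG, bound by ETS factors such as GABP, occurred on either strand in the promoters of 9 of these genes (39.1%), against 9.93% of all 27025 genes in that table, 19.7% of those tested here and 25.0% of 64 subunit genes. The 9 were Ndufaf1, Ecsit, Sdhaf1, Sdhaf2, Sdhaf3, Bcs1l, Cox10, Cox15 and Sco1. The letters GCGCATGCG, from the NRF1 motif, were found for Ndufaf4 and Ttc19 (8.70%, against 1.95% of all genes, 4.16% of those tested and 12.5% of the subunit genes), and AAGATGGCG, from the YY1 motif, for Tmem126b, Cox10 and Atpaf2 (13.0%, against 1.64%, 3.54% and 10.9%). The relaxed GCGCANGCG added Sdhaf3 (13.0%, against 7.03%, 15.6% and 31.2%). AAGGTCA, the core of the site of estrogen-related receptors, was found for Uqcc3 alone (4.35%, against 5.38%, 3.81% and 12.5%), and the longer TCAAGGTCA in none of the 23 (against 0.466%, 0.344% and 3.12%). All letters were searched on both strands, each relaxed or core form contains the matches of its longer form, and a match in these windows is a description of letters.

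Sequences are shown to set the promoters of 3 kinds of member side by side in brown fat over soleus. Each is the 160 bases that end just before the start, 5′ to 3′ on the gene's strand, with NRF1 and ETS letters in capitals. Foxred1 (chr9:35211056-35211215, minus strand) and Atpaf2 (chr11:60417035-60417194, minus strand) had the largest excess in brown fat. Ndufaf4 (chr4:24897923-24898082, plus strand), Sdhaf2 (chr19:10525210-10525369, minus strand), Ttc19 (chr11:62281313-62281472, plus strand), Cox10 (chr11:64079473-64079632, minus strand) and Cox19 (chr5:139345167-139345326, minus strand) were not called. Atpaf1 (chr4:115784668-115784827, plus strand) was called lower, and the first of its annotated starts is used. NRF1 or ETS letters stand in Ndufaf4, Sdhaf2, Ttc19 and Cox10 and not in Foxred1, Atpaf2, Cox19 or Atpaf1. The YY1 letters of Cox10 and Atpaf2 lie outside these stretches. The ETS letters of Sdhaf2 read on the opposite strand, and the NRF1 letters of Ndufaf4 read on both strands, as 2 matches that overlap. Other members called higher in brown fat than in soleus, which are not shown, do hold ETS letters. These are Ndufaf1, Ecsit, Sdhaf1, Sdhaf3, Bcs1l, Cox15 and Sco1.
Foxred1: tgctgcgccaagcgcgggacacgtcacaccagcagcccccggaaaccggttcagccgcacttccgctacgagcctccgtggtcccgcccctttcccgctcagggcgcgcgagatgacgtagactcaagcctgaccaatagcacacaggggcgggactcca
Atpaf2: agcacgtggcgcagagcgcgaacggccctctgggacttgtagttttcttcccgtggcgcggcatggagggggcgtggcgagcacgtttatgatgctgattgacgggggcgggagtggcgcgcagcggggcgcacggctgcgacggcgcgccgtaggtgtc
Ndufaf4: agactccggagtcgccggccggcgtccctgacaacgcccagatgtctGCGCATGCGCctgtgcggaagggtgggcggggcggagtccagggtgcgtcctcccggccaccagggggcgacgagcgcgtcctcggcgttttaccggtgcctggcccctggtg
Sdhaf2: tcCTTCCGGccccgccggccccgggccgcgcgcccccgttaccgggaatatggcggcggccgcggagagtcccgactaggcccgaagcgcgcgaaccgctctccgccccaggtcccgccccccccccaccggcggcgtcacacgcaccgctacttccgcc
Ttc19: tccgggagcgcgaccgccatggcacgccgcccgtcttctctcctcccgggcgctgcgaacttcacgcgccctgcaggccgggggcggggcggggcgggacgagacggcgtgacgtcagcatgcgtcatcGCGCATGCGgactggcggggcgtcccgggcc
Cox10: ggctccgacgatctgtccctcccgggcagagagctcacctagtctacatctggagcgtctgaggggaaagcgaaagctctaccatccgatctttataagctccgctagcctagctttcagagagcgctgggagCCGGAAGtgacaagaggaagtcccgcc
Cox19: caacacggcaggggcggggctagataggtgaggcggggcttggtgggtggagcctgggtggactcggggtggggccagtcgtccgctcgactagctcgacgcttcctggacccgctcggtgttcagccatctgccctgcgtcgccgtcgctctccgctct
Atpaf1: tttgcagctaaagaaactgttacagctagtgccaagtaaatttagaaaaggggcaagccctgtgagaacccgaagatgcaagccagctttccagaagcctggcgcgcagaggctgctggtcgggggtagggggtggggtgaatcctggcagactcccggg

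Some members share exon sequence with another annotated gene, and the library kit does not mark strand, so reads of the pair cannot be told apart. In GENCODE release M21, Ndufaf2 shared 1955 exon bases with B230220B15Rik, Sdhaf1 1733 with E130208F15Rik, Cox11 688 with Tom1l1, Ecsit 598 with Gm16845, Cox15 444 with Entpd7 and Taco1 245 with Taco1os, all on the opposite strand. Cox17 shared 257 exon bases with Gm21987 and Acad9 559 with Gm43079 on the same strand. Tom1l1 averaged 4.25 FPKM in brown fat, 3.80 in soleus and 2.69 in white fat, beside 8.83, 6.75 and 2.27 FPKM for Cox11. Foxred1, Nubpl, Atpaf1, Atpaf2 and Cox18 shared no exon bases with another gene in that annotation.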

How the data were processed

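Libraries were made from TRIzol-extracted total RNA with the Illumina TruSeq RNA kit, per the labels' protocols. The authors deposited 1 matrix of FPKM values, 1 column per library, made with TopHat 1.4.1 and Cufflinks 2.0.1 on mm9 per the submitters' processing notes, and further settings were not given in the sources used here. Of its 18401 rows, 18305 were named by accession from a RefSeq gene table and 38 from GENCODE; the other 58 were left out and held at most 0.36% of a library's FPKM. Rows of a symbol were summed, though every member had a single row. FPKM is divided by transcript length and library total, so very abundant transcripts lower all others. Read totals were not given. Relative depth came from the commonest ratio of values up to 0.3 FPKM, and no counts were used.

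The 9 libraries were fitted together on log2(FPKM + 1) with limma 3.58.1 in R 4.3.3, with a variance trend and 6 residual degrees of freedom. A gene entered when 3 or more libraries reached 1 FPKM, which left 9913 genes, tested two-sided, with Benjamini-Hochberg adjustment within each of 3 comparisons. Folds given as times are ratios of mean FPKM. The method was tested on simulated data. The members, lists, motifs and tests were chosen with earlier results of these data known. Values in every library go to members with the 5 largest called changes per direction and comparison, the highest member of each complex and members against the majority. Alternatives covered pseudocount, filter, scaling, libraries fitted, variance trend, symbols with several rows, replicate block and each library left out. Figures were drawn with matplotlib 3.10.9.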

Additional observations from a re-analysis of the deposited data

How the results depend on the processing

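Of 1539 repeats of single gene results (27 genes, 3 comparisons), 1494 kept direction and call and 20 changed sign. In all 24 lost the call, 11 of them with a change of sign, and 16 gained one, 4 of them with a change of sign. In 1 repeat a called difference reversed and was called again. This was Cox15, called lower in soleus than in white fat with TPM rescaling (limma adjusted p = 0.032). Several alternatives could not change a member's difference, so the 1494 include repeats whose direction was fixed. These were the filter, variance trend, fit of only the tissues compared, highest row, replicate block and leaving out a library of the tissue not compared. In brown fat over white fat all 27 genes stayed higher and 0 lower under every alternative except TPM rescaling, which called 25, and their median was 1.55 with a pseudocount of 0.1, 1.07 with 5, 0.95 with TPM rescaling and 1.15 with upper quartile scaling (1.31 to 1.38 leaving out 1 library). In brown fat over soleus 13 were higher with median of ratios scaling, and 2 were lower with TPM rescaling and 5 with upper quartile or median of ratios scaling; the median was 0.54 with a pseudocount of 5, 0.30 with upper quartile and 0.27 with median of ratios scaling. Leaving out 1 library gave 20 to 22 higher, 1 lower and a median of 0.55 to 0.70. In soleus over white fat 8 were lower with TPM rescaling and 3 with median of ratios scaling, and the median was 0.69 with a pseudocount of 5, 0.43 with TPM rescaling, 1.12 with upper quartile and 1.37 with median of ratios scaling. Leaving out 1 library gave 20 to 21 higher, 5 lower and a median of 0.83 to 0.99.

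Sign changes in brown fat over soleus were, with upper quartile and median of ratios scaling, -0.26 and -0.29 for Cox10, -0.07 and -0.11 for Ecsit, -0.10 and -0.14 for Ndufaf1, -0.16 and -0.19 for Ndufaf4 and -0.0014 and -0.04 for Sdhaf1, and with median of ratios scaling alone -0.02 for Cox11 and -0.01 for Sdhaf3. In soleus over white fat they were, with TPM rescaling, -0.25 for Cox15, -0.03 for Ndufaf2, -0.31 for Ndufaf3, -0.20 for Sco1 and -0.55 for Tmem126b, then 0.02 for Cox18 with median of ratios scaling, and for Tmem126b -0.04 without white fat replicate 3 and -0.12 without soleus replicate 2. The cause was not tested. Sdhaf3 lost its call in brown fat over soleus without brown fat replicate 1 (limma adjusted p = 0.071) or soleus replicate 1 (0.072), and Ndufaf4 gained one without soleus replicate 2 (0.022).

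The ratio of factors to subunits was 1.98% in brown fat, 1.17% in soleus and 2.83% in white fat from sums of FPKM, and 5.15%, 3.65% and 11.2% from genes with a mean of at least 10 FPKM, an unchanged order (3.71% to 3.84%, 2.76% to 3.07% and 9.59% to 10.1% leaving out 1 library). Over all genes, TPM rescaling gave 1898 higher and 6993 lower calls in brown over white fat in place of 3769 and 3446 (21.3% higher in place of 52.2%), and the share called higher moved from 35.3% to 20.4% in soleus over white fat. Median of ratios scaling gave 3899 lower calls in brown fat over soleus in place of 2535, with 49.0% higher in place of 67.4% (50.7% with upper quartile scaling), and 52.0% higher in soleus over white fat. With the replicate number as a block the members' counts were the same (27, 21 and 20 higher), but deviations of libraries with the same number correlated at -0.22 to 0.0774, and the labels do not say that numbers pair libraries. Read totals are unknown, and 3 libraries a tissue limit the precision of low genes such as Sco1 and Atpaf1.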
